A study of Mus musculus with 20 samples.

Results

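Macrophages and their blood precursors, the monocytes, can be followed in bulk skin RNA by genes that mark the lineage and genes that mark a state of activation. Here 10 such genes, Cd68, Csf1r, Mrc1, Cd163, Msr1, Trem1, Trem2, Cd14, Irg1 and Nos2, were taken by symbol from a table of 22090 genes, and all 10 were found. The samples were 8 normal skins (NS), 8 actinic keratoses (AK, a premalignant lesion) and 4 cutaneous squamous cell carcinomas (cSCC) of female SKH-1 mice, a hairless strain prone to skin tumors under ultraviolet light. The labels give an age of 7 months. By the study's methods this was the age of the mice as purchased, and they were killed after the course of irradiation, so they were older when tissue was taken. Of the 8 mice, 4 were irradiated and gave all lesions, and the NS group joins skin of irradiated and unirradiated mice, which the sample names do not separate. No label ties a tissue to its mouse, 8 AK came from 4 mice, and lesions of 1 mouse may resemble each other, so p-values measure the spread between these samples only.

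Skin holds resident macrophages that clear debris, bind lipids and repair tissue, while monocytes enter it from the blood after injury or infection. Resident cells are known for scavenger receptors such as Mrc1 and Cd163, and freshly activated cells for sensors and effectors such as Cd14, Trem1, Irg1 and Nos2. In bulk tissue, fewer cells of a type and less RNA per cell cannot be told apart. Several of these genes are also used by other leukocytes, Trem1 and Cd14 by neutrophils among them.

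Total counts per sample ran from 1624325 to 6295575 in NS, from 867219 to 14055206 in AK and from 775750 to 7095102 in cSCC. Levels are in CPM, read counts relative to the library total after adjustment with TMM factors, and 3 counts, taken as the smallest detectable level, equal 0.225 CPM in the deepest library and 3.78 CPM in AK replicate 12. Keratinocyte markers were present in every sample, with a summed level between 3748 and 19039 CPM. The cSCC libraries were not alike: haemoglobin genes held 46.8% of counts in cSCC replicate 18, lung epithelium genes summed to 35805 CPM in cSCC replicate 20 against a highest value of 51.7 in NS and AK, and heart muscle genes summed to 54737 CPM in cSCC replicate 21 against 73.2. Many results on cSCC are therefore also given without replicates 20 and 21, and the others rest on all cSCC libraries. The part of these organ genes' source in the results was not tested beyond leaving out these replicates.

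Promoter sequences are shown for the genes on which the cSCC results turn and for a close relative that did not move with them. Trem1 (chr17:48232768-48246924, GRCm38, plus strand) and Trem2 (chr17:48346401-48354147, plus strand) lie 99476 bases apart, and Irg1, now named Acod1, lies at chr14:103046977-103056573 on the plus strand. RefSeq promoters (GRCm38.p6, 250 bases before to 50 after the start) were matched for 6 of the 10 genes, Cd68, Mrc1, Cd163, Trem1, Trem2 and Irg1. No entry was matched for Csf1r, Msr1, Cd14 and Nos2. Capitals mark matches, on either strand, to the PU.1 core GAGGAA, AP-1 TGANTCA, the gamma interferon activated site (GAS) TTCNNNGAA or the NF-kappaB motif. The windows are chr17:48232489-48232788 for Trem1, chr14:103046762-103047061 for Irg1 and chr17:48346151-48346450 for Trem2, all on the plus strand.
Trem1: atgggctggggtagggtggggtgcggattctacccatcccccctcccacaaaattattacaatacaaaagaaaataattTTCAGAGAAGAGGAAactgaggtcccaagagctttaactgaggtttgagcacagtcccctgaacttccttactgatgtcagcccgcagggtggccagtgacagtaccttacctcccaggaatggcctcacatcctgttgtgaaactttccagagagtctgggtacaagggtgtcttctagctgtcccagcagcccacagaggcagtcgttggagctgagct
Irg1: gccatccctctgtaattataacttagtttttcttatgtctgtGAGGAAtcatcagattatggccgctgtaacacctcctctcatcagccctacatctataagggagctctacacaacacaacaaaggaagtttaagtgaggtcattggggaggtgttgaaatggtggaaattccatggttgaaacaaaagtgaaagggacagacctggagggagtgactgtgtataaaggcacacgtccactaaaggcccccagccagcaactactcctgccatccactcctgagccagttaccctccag
Trem2: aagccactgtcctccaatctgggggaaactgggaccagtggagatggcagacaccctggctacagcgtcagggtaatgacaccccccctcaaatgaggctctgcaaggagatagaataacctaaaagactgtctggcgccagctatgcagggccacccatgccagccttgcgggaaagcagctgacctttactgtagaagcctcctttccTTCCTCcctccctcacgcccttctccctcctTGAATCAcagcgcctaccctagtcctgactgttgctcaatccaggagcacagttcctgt

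PU.1 is a transcription factor of the myeloid lineage, and its core letters stood in 5 of the 6 promoters, against 28.1% of 32544 mouse promoters of this length. In Trem1 the GAS letters TTCAGAGAA at bases 80 to 88 of the window ran directly into a PU.1 core at bases 89 to 94, and GAS letters occur in 8.33% of promoters. Irg1 held 1 PU.1 core at bases 43 to 48. Trem2 held a PU.1 core at bases 211 to 216 and AP-1 letters at bases 242 to 248, 9 bases before the start, where 7.79% of promoters hold AP-1 letters. The NF-kappaB motif was searched as only 1 letter pattern, on either strand. That pattern, found in 1.47% of promoters, was in none of these 6 windows. Looser forms of the motif were not searched, so the windows may still hold such letters. Matches describe letters only and carry no information on binding.

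Of the 4 activation genes, 3 separated cSCC from the other tissues and the last, Nos2, overlapped. Trem1, Cd14 and Irg1 were higher in all 4 cSCC than in any NS or AK sample, at 15.7 to 54.0 times the level, while the lineage gene Cd68 and the scavenger receptors overlapped between groups. In edgeR's quasi-likelihood test (adjusted p under 0.05 and fold change above 1.5 or below 0.67), 3 of 9 tested genes were called in cSCC vs. NS, all 3 higher, against 19.3% of 12097 genes called in either direction. Groups that did not overlap, with cSCC above, were seen for 3 of the 10 genes against 2.70% of all genes tested. In cSCC vs. AK, which shares the cSCC samples with the first comparison, 3 of 9 were called, all 3 higher, against 24.4% of 12032 genes, and 3 of the 10 did not overlap, against 3.33%. Of the 6 genes that edgeR did not call, limma voom called none in either comparison, and DESeq2 called Trem2 lower in cSCC vs. AK. Without cSCC replicates 20 and 21, edgeR called Trem1, Cd14 and Irg1 in both comparisons, again 3 of 9. Trem1 entered these tests through its cSCC counts, since it was too low to be tested in AK vs. NS, so the 3 of 9 partly reflect the count filter. Among the other 8 tested genes, 2 were called in each comparison, a share close to that of all genes. The median log2 fold change of the tested genes was 0.45 vs. NS and 0.52 vs. AK, beside 0.14 and 0.17 over all genes, and 0.30 and 0.15 when Trem1 is left out.

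**Figure D1:**
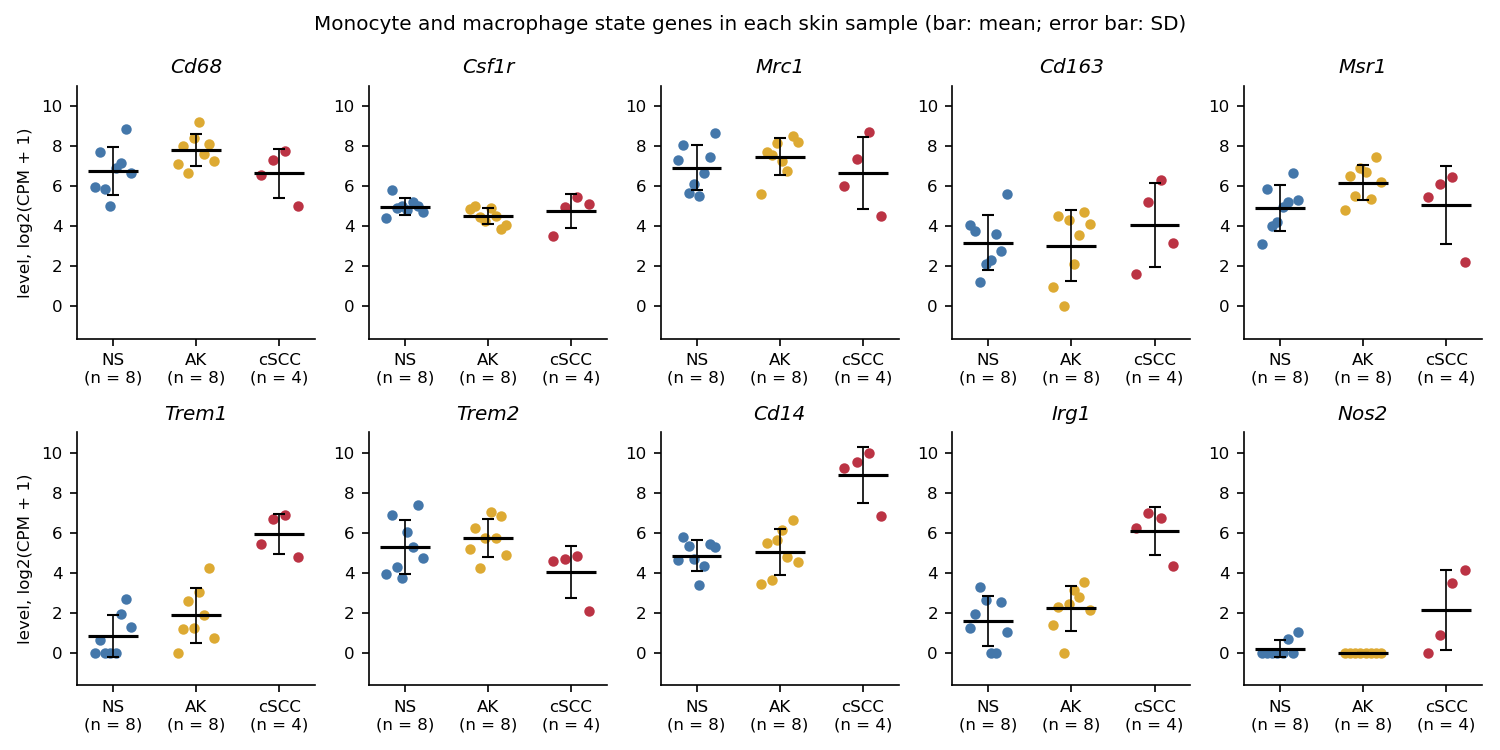
Level of each of the 10 genes in each sample, as log2(CPM + 1), for NS (n = 8), AK (n = 8) and cSCC (n = 4), with the bar at the mean and the error bar the SD of the plotted values. All 4 cSCC points lie above every NS and AK point for Trem1, Cd14 and Irg1, and the groups overlap for the other 7 genes.

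Trem1 encodes a receptor that amplifies inflammatory signals in monocytes and neutrophils. In NS its level was lowest at 0, median 0.29 and highest 5.48 CPM, with a count in 4 of 8 samples, and in AK it was 0, 2.06 and 17.98 CPM, with a count in 7 of 8. The cSCC samples, replicates 18 to 21 in order here and below, had 41.7, 102, 117 and 26.6 CPM. All cSCC samples were above the highest AK, which was replicate 16. The log2 fold change was 5.75 ± 0.89 (SE) vs. NS (edgeR, adjusted p = 0.00167) and 4.25 ± 0.90 vs. AK (edgeR, adjusted p = 0.00559). Without cSCC replicates 20 and 21 it was 5.73 (adjusted p = 0.00367) and 4.32 (adjusted p = 0.0120). AK vs. NS was not tested for Trem1, because too few samples held enough counts.

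Cd14 encodes the co-receptor that hands bacterial lipopolysaccharide to the Tlr4 complex. NS samples ran from 9.58 to 54.5 CPM with a median of 31.6, AK samples from 9.95 to 98.9 with a median of 35.7, and cSCC had 603, 727, 1022 and 114 CPM. Only cSCC replicate 21 came near the AK range. The log2 fold change was 4.35 ± 0.49 vs. NS (edgeR, adjusted p = 0.000323) and 3.97 ± 0.59 vs. AK (edgeR, adjusted p = 0.00194), and 4.43 and 4.06 without replicates 20 and 21 (adjusted p = 0.000186 and 0.00135). In AK vs. NS it was 0.39 ± 0.41, which did not pass (edgeR, adjusted p = 0.59, normal 95% interval -0.42 to 1.20).

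Irg1 encodes the mitochondrial enzyme that makes itaconate in activated macrophages. Its level in NS was 0 to 8.82 CPM with a median of 2.15, in AK 0 to 10.8 with a median of 4.17, and in cSCC 75.0, 124, 106 and 19.4 CPM. NS and AK overlapped widely, and cSCC stood apart from both. The log2 fold change was 4.79 ± 0.79 vs. NS (edgeR, adjusted p = 0.002) and 4.16 ± 0.55 vs. AK (edgeR, adjusted p = 0.00126), with 5.08 and 4.46 without replicates 20 and 21 (adjusted p = 0.00326 and 0.00116). In AK vs. NS the value was 0.65 ± 0.68 (edgeR, adjusted p = 0.583, interval -0.69 to 1.99).

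Nos2 encodes the inducible nitric oxide synthase of classically activated macrophages and was almost not detected. It had 9 counts in 2 of 8 NS samples and 0 counts in all 8 AK, where 3 counts would be 0.225 to 3.78 CPM. The cSCC samples held 0, 2, 9 and 102 counts, equal to 0, 0.879, 10.2 and 16.9 CPM. Nos2 did not enter the edgeR tests because of its low counts, 102 of its 113 cSCC counts came from replicate 21, the library with the heart genes, and 1 cSCC had no count. DESeq2 and the edgeR fit without a count filter called it higher in both cSCC comparisons.

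**Figure D2:**
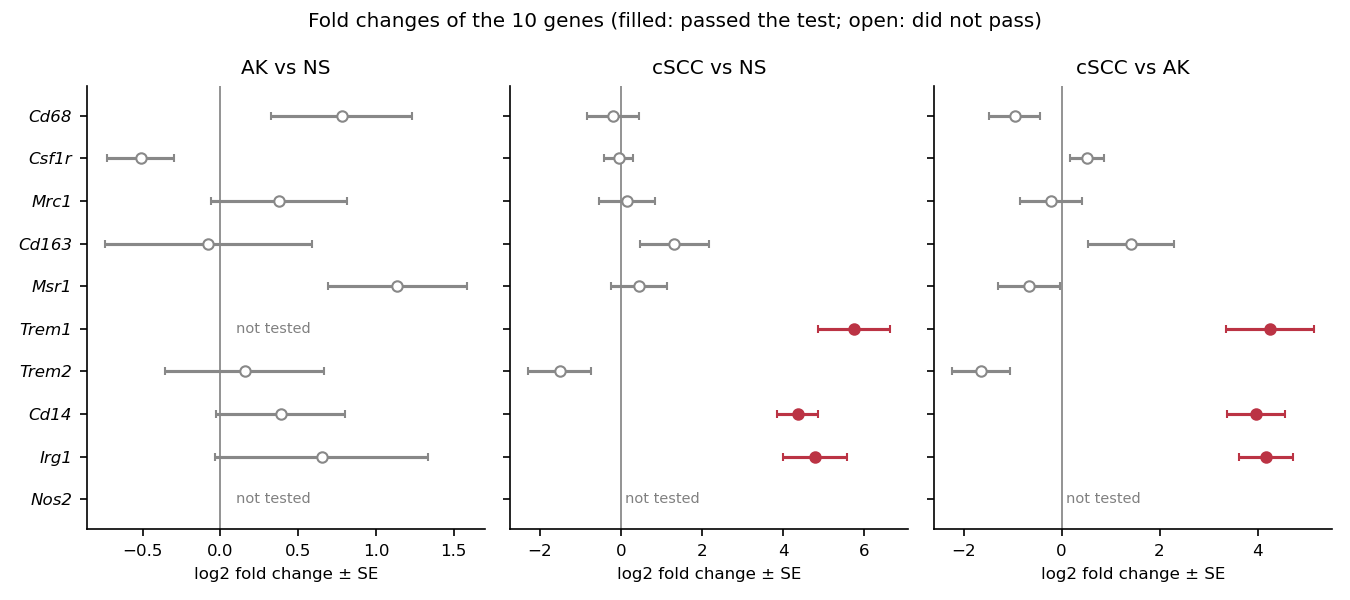
Log2 fold change with its standard error for each of the 10 genes in the 3 comparisons from edgeR's quasi-likelihood test, on an x axis that differs between panels, with filled points for genes that passed and open points for those that did not. Filled points are Trem1, Cd14 and Irg1 in cSCC vs. NS and cSCC vs. AK, at log2 fold changes of 3.97 to 5.75, and every point of AK vs. NS is open.

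Lineage genes did not follow the activation genes. Cd68, a glycoprotein of lysosomes in macrophages, had NS levels of 31.0 to 459 CPM (median 110), AK levels of 99.6 to 580 (median 225) and carcinoma levels of 91.7, 155, 215 and 30.8 CPM. The 3 groups overlapped. Its log2 fold change was 0.78 ± 0.45 in AK vs. NS (edgeR, adjusted p = 0.296), -0.20 ± 0.64 in cSCC vs. NS (adjusted p = 0.863, interval -1.45 to 1.06) and -0.96 ± 0.52 in cSCC vs. AK (adjusted p = 0.186, interval -1.97 to 0.05). Without NS replicate 8, whose 459 CPM stood far above the other NS, AK vs. NS passed at 1.29 (edgeR, adjusted p = 0.0494). Without cSCC replicates 20 and 21 the cSCC values were -0.22 vs. NS and -0.97 vs. AK (edgeR, adjusted p = 0.878 and 0.267).

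Csf1r encodes the receptor that keeps macrophages alive on the ligands Csf1 and Il34. NS ran from 20.1 to 55.3 CPM (median 30.1), AK from 13.8 to 31.4 (median 21.8), and cSCC had 10.4, 30.3, 43.2 and 33.7 CPM. It was lower in AK than in NS by a log2 fold change of -0.51 ± 0.22 with an unadjusted p of 0.0286, and it did not pass (edgeR, adjusted p = 0.152). The values in cSCC were -0.05 ± 0.36 vs. NS (edgeR, adjusted p = 0.936, interval -0.75 to 0.65) and 0.52 ± 0.35 vs. AK (adjusted p = 0.298, interval -0.17 to 1.21). Without cSCC replicates 20 and 21 they were -0.59 and -0.045 (adjusted p = 0.391 and 0.958). Exons of Csf1r overlap those of Hmgxb3 on the opposite strand, so its counts are uncertain if reads were counted without strand.

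Scavenger receptors overlapped between the 3 groups. Mrc1, the mannose receptor, lay between 45.1 and 397 CPM in NS (median 128), between 48.3 and 363 in AK (median 199) and had 63.2, 163, 420 and 21.8 CPM in cSCC, a spread that covers the NS range and more. Its log2 fold change was 0.37 ± 0.44 in AK vs. NS, 0.15 ± 0.70 in cSCC vs. NS and -0.21 ± 0.63 in cSCC vs. AK (edgeR, adjusted p = 0.628, 0.907 and 0.834). The cSCC vs. NS value turned to -0.90 without replicate 20, whose 420 CPM was the highest of all samples.

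Cd163, the receptor for haemoglobin bound to haptoglobin, was at 1.36 to 47.2 CPM in NS (median 8.55), 0 to 25.2 in AK (median 13.5), and 2.08, 36.0, 78.5 and 7.94 CPM in cSCC. The lowest cSCC value was in replicate 18, the library with 46.8% haemoglobin counts. No comparison passed, with log2 fold changes of -0.08 ± 0.66 in AK vs. NS, 1.32 ± 0.85 in cSCC vs. NS and 1.41 ± 0.87 in cSCC vs. AK (edgeR, adjusted p = 0.956, 0.297 and 0.25), and intervals of -0.35 to 2.99 and -0.30 to 3.13 for the cSCC comparisons. Without cSCC replicates 20 and 21 the cSCC values were 0.63 and 0.75 (adjusted p = 0.716 and 0.67).

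Msr1, the class A scavenger receptor for modified lipoproteins, was at 7.57 to 102 CPM in NS (median 33.1), 26.7 to 177 in AK (median 81.8) and 43.1, 68.1, 87.6 and 3.64 CPM in cSCC. It had the largest value of the 8 genes tested in AK vs. NS, a log2 fold change of 1.14 ± 0.45 with an unadjusted p of 0.0195, and it did not pass (edgeR, adjusted p = 0.126). Without NS replicate 8 it passed at 1.52 (adjusted p = 0.0335). In cSCC the values were 0.45 ± 0.68 vs. NS and -0.67 ± 0.63 vs. AK (edgeR, adjusted p = 0.679 and 0.458, intervals -0.89 to 1.79 and -1.90 to 0.56). Without cSCC replicates 20 and 21 they were 0.58 and -0.52 (edgeR, adjusted p = 0.601 and 0.589).

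Trem2, the lipid-sensing relative of Trem1, had no call in edgeR's test and negative log2 fold changes in cSCC. NS ran from 12.1 to 164 CPM (median 32.0), AK from 17.7 to 131 (median 52.1), and cSCC had 22.9, 25.0, 27.3 and 3.31 CPM. The 4 cSCC values were all below both medians but inside or below the low end of the other ranges. Its log2 fold change was 0.16 ± 0.51 in AK vs. NS (edgeR, adjusted p = 0.879), -1.50 ± 0.77 in cSCC vs. NS (adjusted p = 0.186, interval -3.02 to 0.01) and -1.64 ± 0.60 in cSCC vs. AK (adjusted p = 0.0577, interval -2.81 to -0.47), and none passed. The last passed without AK replicate 12, at -1.85 (edgeR, adjusted p = 0.0408), and without cSCC replicates 20 and 21 it was -1.33 (adjusted p = 0.185). The cSCC vs. NS value without these cSCC replicates was -1.20 (edgeR, adjusted p = 0.42).

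In AK vs. NS, 0 of the 8 tested genes passed in edgeR's test, against 4.64% of 11677 genes, and 0 by DESeq2, while limma voom called 2, Cd68 and Msr1. The unadjusted p was under 0.05 for 2, Msr1 and Csf1r, against 24.6% of all genes. Their median log2 fold change was 0.38, beside -0.04 over all genes. NS samples enter this comparison and cSCC vs. NS alike.

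Levels between genes were compared as CPM per kilobase of exon. Exons were merged over all annotated transcripts of a gene, with 1257 bases for Cd68 and 4946 for Trem2. A gene whose main transcript is much shorter than its merged exons would rank too low. Cd68 led in NS at 117 ± 110 (SD, n = 8) and in AK at 202 ± 122 (n = 8), above the next gene, Mrc1, in 8 of 8 samples of each group. In cSCC Cd14 led at 356 ± 218 (n = 4), followed by Cd68 at 98.0 ± 63.3, with Cd14 above Cd68 in 4 of 4 samples. Irg1 had rank 3 of 10 in cSCC at 30.9 ± 17.5, and rank 8 in NS at 1.15 ± 1.17 and in AK at 1.81 ± 1.31. Mrc1, by contrast, stayed between 24.7 and 32.4 per kilobase in the means of the 3 groups. Trem2 had rank 4 in NS, at 11.4, and rank 9 in cSCC, at 3.97, and Trem1 had rank 9 in NS, at 0.435, and rank 5 in cSCC, at 24.0. Nos2 was last in each group. Ranges of neighbours in the order overlapped in every case but Cd68 and Mrc1 in AK.

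**Figure D3:**
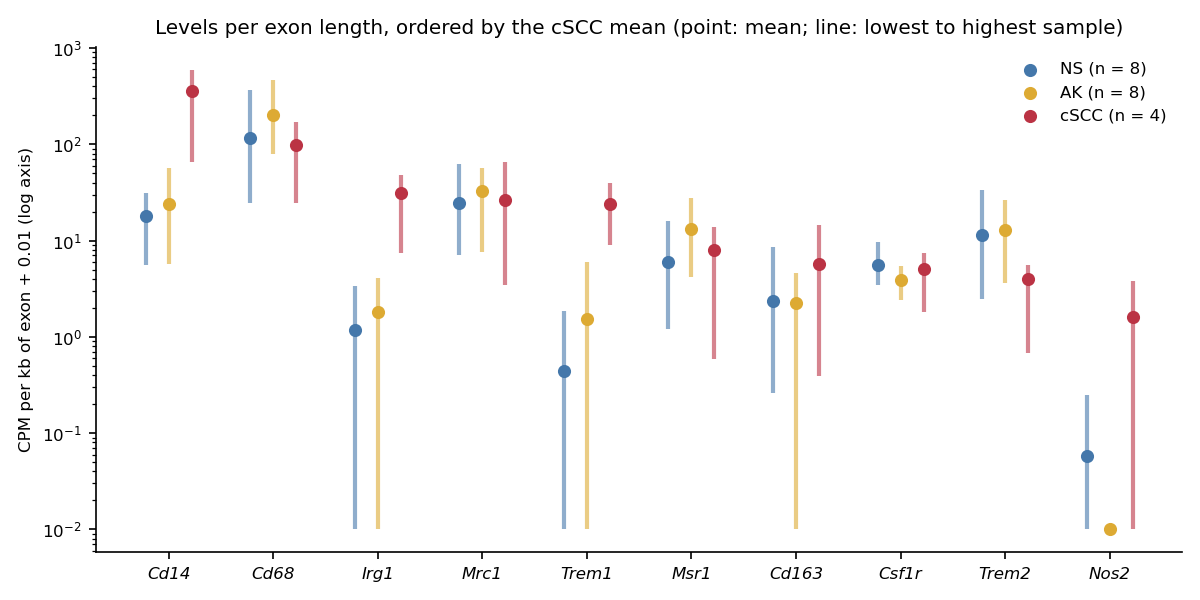
Mean level per kilobase of exon (points) and range from the lowest to the highest sample (lines) of the 10 genes in NS (n = 8), AK (n = 8) and cSCC (n = 4), on a log axis with 0.01 added so that a 0 can be drawn. Cd14, Irg1 and Trem1 have cSCC lines wholly above those of NS and AK, and Cd68 is the highest gene of NS and AK.

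A ratio of 2 genes inside a library does not change with the scaling of that library, so 6 genes were set against Cd68 as log2 ratios of counts, each with 0.5 added. Exact two-sided permutation tests over 18 comparisons gave 4 differences with an adjusted p under 0.05. Trem1 to Cd68 had a mean of -7.59 ± 1.41 (SD) in NS, -6.90 ± 2.50 in AK and -0.70 ± 0.39 in the carcinomas, so cSCC was higher by 6.89 vs. NS and 6.20 vs. AK (exact p = 0.00404, the smallest that 4 against 8 samples can give here, adjusted 0.0364 in both). With 0 counts of Trem1 in 4 of 8 NS samples, the size of this difference depends on the count added, and it was 8.10 and 6.55 with 0.1 added and 5.76 and 5.73 with 2 added. The Trem2 to Cd68 ratio was -1.51 ± 0.46 in NS and -2.69 ± 0.52 in cSCC (difference -1.17, exact p = 0.00808, adjusted 0.0427). The Csf1r to Cd68 ratio was -1.80 ± 1.11 in NS and -3.34 ± 0.87 in AK (difference -1.53, exact p = 0.00948, adjusted 0.0427). With 1 sample left out, which raises the smallest p that the splits allow, 0 to 5 ratios passed, and without cSCC replicates 20 and 21 the number was 0, with differences of 6.73 and 6.03 for Trem1 and -0.79 for Trem2 vs. NS. Over the alternative settings the Csf1r call in AK vs. NS was lost in 14 of 18 and the Trem2 call vs. NS in 12 of 15. The Trem1 calls were lost in 10 of 15 vs. NS and 4 of 15 vs. AK. In 2 against 8 samples the smallest exact p is 0.0444, which could not pass the adjustment here, and the unaltered Csf1r difference in AK vs. NS was lost through the adjustment alone (adjusted p = 0.171). The ratios of Mrc1 and Msr1 to Cd68 differed between groups by at most 0.49 on the log2 scale (exact adjusted p from 0.65 to 0.905). The Cd163 to Cd68 ratio differed more, by -1.27 in AK vs. NS, 1.09 in cSCC vs. NS and 2.36 in cSCC vs. AK. None of these passed (exact adjusted p = 0.359, 0.589 and 0.135). For cSCC vs. AK the lowest adjusted p with 1 sample left out was 0.0436, and the difference was 1.37 without replicates 20 and 21.

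**Figure D4:**
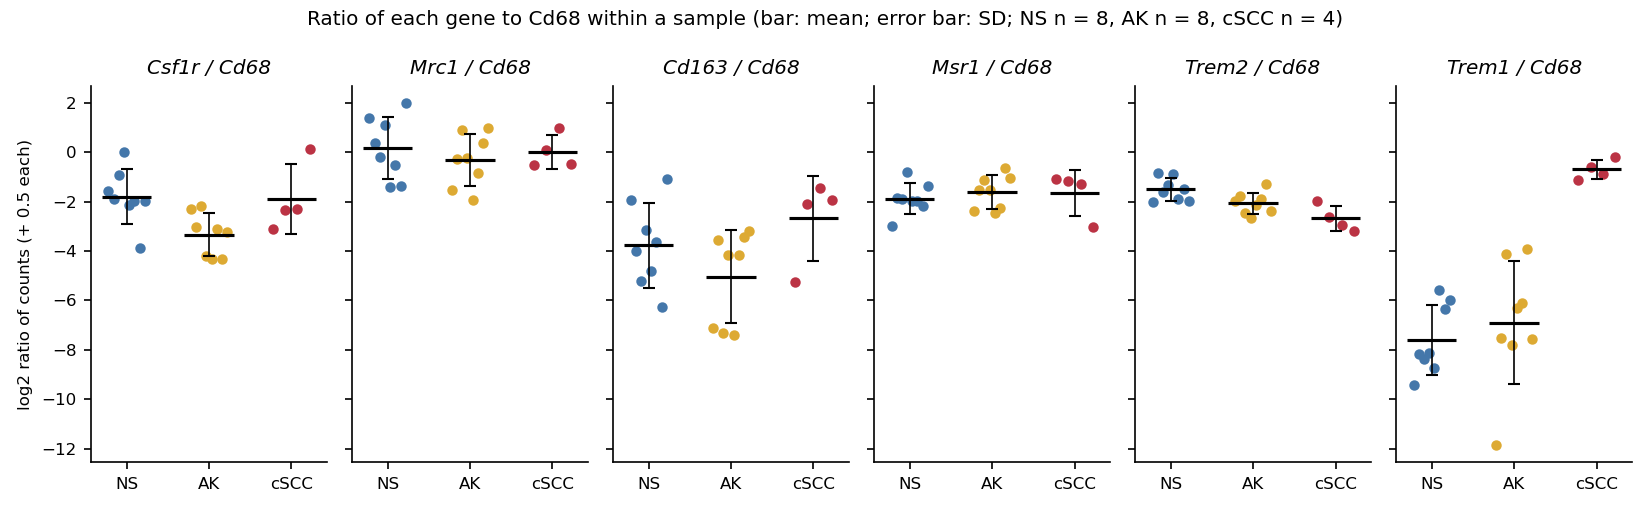
Log2 ratio of the counts of 6 genes to those of Cd68 in each sample (0.5 added to each count), with the bar at the mean and the error bar the SD, for NS (n = 8), AK (n = 8) and cSCC (n = 4). The Trem1 ratio lies between -1.13 and -0.21 in cSCC and at -3.93 or lower in every NS and AK sample, and the Trem2 ratio is lower in cSCC than in NS on average.

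Other genes of the lineage were read from lists chosen for the pathway. Of 14 core macrophage genes, 1 of 13 tested was higher in AK vs. NS, 2 of 14 in cSCC vs. NS and 2 of 13 in cSCC vs. AK. Over all genes, 4.64%, 19.3% and 24.4% were called in either direction, so both cSCC counts were below the share of all genes. The median log2 fold changes were 0.52, 0.48 and -0.032 beside -0.04, 0.14 and 0.17 over all genes. Fcgr1, the high-affinity antibody receptor, rose in AK vs. NS (1.49 ± 0.39, edgeR, adjusted p = 0.0356) and in cSCC vs. NS (1.64 ± 0.55, adjusted p = 0.0485), but passed in 8 of 16 and 2 of 12 fits that each left out 1 sample. C1qa, a chain of complement C1q, was higher in cSCC by 1.73 ± 0.53 vs. NS (edgeR, adjusted p = 0.0341) and 2.77 ± 0.47 vs. AK (adjusted p = 0.00248). The C1qa call vs. AK passed in 12 of 12 fits with 1 sample left out and that vs. NS in 4 of 12. Without cSCC replicates 20 and 21, C1qa had 1.87 vs. NS (adjusted p = 0.0759) and 2.90 vs. AK (adjusted p = 0.00545). The other chains had 1.21 for C1qb and -0.11 for C1qc vs. NS (edgeR, adjusted p = 0.163 and 0.884), neither of which passed. The transcription factor gene Spi1, which encodes PU.1, rose by 2.24 ± 0.62 in cSCC vs. AK (edgeR, adjusted p = 0.0187, highest adjusted p 0.0953 without cSCC replicate 21, and 1.17 with adjusted p = 0.373 without replicates 20 and 21). Emr1, which encodes the F4/80 antigen, had -0.06 ± 0.51 vs. NS and -0.03 ± 0.52 vs. AK (edgeR, adjusted p = 0.95 and 0.97), and Itgam, the integrin chain CD11b, had 0.39 ± 0.36 and -0.11 ± 0.44 (adjusted p = 0.476 and 0.883).

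Among 14 ligands, receptors and adaptors, 13 of them tested, 1 gene passed in each comparison. Over all genes, 4.64% were called in AK vs. NS, 19.3% in cSCC vs. NS and 24.4% in cSCC vs. AK. Il34, the Csf1r ligand made by keratinocytes, fell in AK, where the mean was 3.15 CPM against 9.83 in NS (log2 fold change -1.55 ± 0.39, edgeR, adjusted p = 0.0316, passing in 9 of 16 fits with 1 sample left out). Tlr4, the partner of Cd14, had means of 5.06 CPM in NS, 14.4 in AK and 18.4 in cSCC and passed in cSCC vs. NS only. There it rose by 1.91 ± 0.58 (edgeR, adjusted p = 0.0336, and 1.66 with adjusted p = 0.159 without cSCC replicates 20 and 21). Csf2ra, a receptor chain for the growth factor GM-CSF, rose in cSCC vs. AK by 1.54 ± 0.46 (edgeR, adjusted p = 0.0271, and 0.87 with adjusted p = 0.359 without these replicates). Tyrobp, the adaptor through which both Trem1 and Trem2 signal, had -0.08 ± 0.30 in AK vs. NS, -0.18 ± 0.47 in cSCC vs. NS and -0.08 ± 0.36 in cSCC vs. AK (edgeR, adjusted p = 0.888, 0.826 and 0.899), with intervals that reached from -1.11 to 0.75 in cSCC vs. NS. Csf1 had 1.00 ± 0.40 and 1.02 ± 0.41 in the cSCC comparisons and did not pass (edgeR, adjusted p = 0.0943 and 0.0798), and without cSCC replicates 20 and 21 it had -0.13 and -0.15.

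Of 11 genes of classical activation, 7 could be tested in cSCC vs. NS and 8 in cSCC vs. AK. In each, 3 were higher, with medians of 1.25 and 1.21, against 19.3% and 24.4% of all genes called in either direction. The other 4 and 5 tested genes were not called. Cd86 had a lower mean in cSCC, 31.6 CPM against 45.9 in NS and 57.6 in AK, as did Irf5, with 6.25 against 15.1 and 12.9. Il1b, the gene of the cytokine IL-1 beta, was at 5.10 to 31.3 CPM in NS, 27.7 to 174 in AK, and 494, 1453, 1154 and 149 CPM in cSCC. It rose by 5.24 ± 0.55 vs. NS and 4.03 ± 0.59 vs. AK (edgeR, adjusted p = 0.000297 and 0.00187), and passed in 12 of 12 fits of each with 1 sample left out and without cSCC replicates 20 and 21, at 5.47 and 4.29 (adjusted p = 0.000186 and 0.0013). Ptgs2, the inducible prostaglandin synthase, was the gene of this list that rose in AK vs. NS, by 3.69 ± 0.67, and it rose in cSCC vs. NS by 4.76 ± 0.74 (edgeR, adjusted p = 0.0151 and 0.00167). Socs3, a feedback inhibitor of cytokine signals, rose by 1.71 and 1.32 (edgeR, adjusted p = 0.0216 and 0.0128) and Tnf by 2.70 vs. AK (adjusted p = 0.0222), and these 3 calls were lost without cSCC replicate 19, where the highest adjusted p were 0.106, 0.0741 and 0.173. Arg1, an arginase gene from the list of alternative activation, rose as well. It was at 15.5 to 75.2 CPM in NS, 44.2 to 125 in AK, and 448, 325, 594 and 57.7 CPM in cSCC. Its log2 fold changes were 3.12 ± 0.51 vs. NS and 2.35 ± 0.44 vs. AK (edgeR, adjusted p = 0.00192 and 0.00329). Without replicates 20 and 21 they were 3.20 and 2.45 (edgeR, adjusted p = 0.00152 and 0.00136). Which cells of the tissue expressed Arg1 or the genes above was not tested. Arg1 was 1 of 13 tested genes of alternative activation and tissue residence that rose vs. NS and 1 of 2 vs. AK, the other being Cbr2 (1.40, adjusted p = 0.0431, passing in 3 of 12 fits with 1 sample left out), and the list medians were 0.40 and 0.38.

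Trem2 is known from lipid-loaded macrophages, and of 10 genes linked to that state 1 passed, Gpnmb, which fell in cSCC vs. AK by 2.14 on the log2 scale (edgeR, adjusted p = 0.0268, and 0.0577 without cSCC replicate 19). In that comparison 24.4% of all genes were called in either direction. In AK vs. NS and cSCC vs. NS edgeR called 0 of the 10, with an unadjusted p under 0.05 for 1 and 2. DESeq2 called 1 lower and 0, and limma voom 1 higher and 0.

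**Figure D5:**
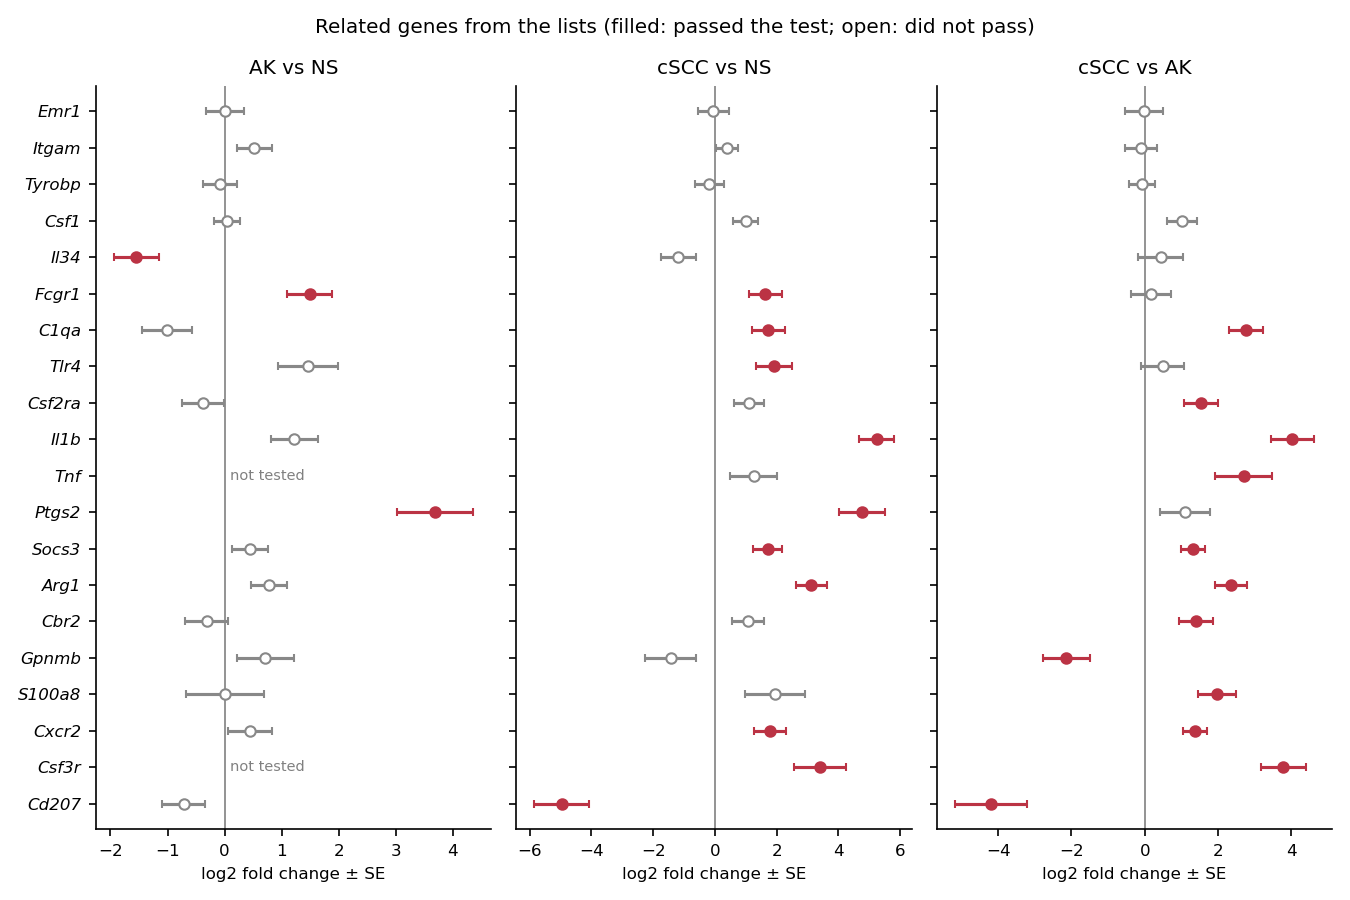
Log2 fold change with its standard error for 20 related genes from the lists in the 3 comparisons (edgeR's quasi-likelihood test, x axis differing between panels), with filled points for genes that passed and open points for those that did not. Emr1, Itgam, Tyrobp and Csf1 are open in every panel, Il1b and Arg1 are filled in both cSCC panels, and Cd207 is filled on the lower side of both.

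Markers of other cell types differed in how far they changed in cSCC. The cSCC samples had summed levels of 10 neutrophil markers of 14773, 3393, 3856 and 2758 CPM, against 88.7 to 5999 CPM over NS and 637 to 3154 CPM over AK, so that the ranges overlapped, and no marker was at 0 throughout a group. Neutrophil markers called higher numbered 2 of 10 vs. NS and 5 of 10 vs. AK, with medians of 1.83 and 1.75, against 19.3% and 24.4% of all genes called in either direction. DESeq2 called 4 of 7 and 4 of 8 higher, and limma voom 6 of 10 and 4 of 10. Without cSCC replicates 20 and 21, edgeR called 1 of 10 higher vs. NS. The receptor gene Csf3r rose by 3.41 ± 0.84 and 3.78 ± 0.61 (edgeR, adjusted p = 0.0137 and 0.00234), and S100a8 had 1.93 ± 0.97 vs. NS, which did not pass, and 1.97 ± 0.53 vs. AK (adjusted p = 0.0165, and 0.169 without cSCC replicate 18, whose 6151 CPM was the highest). The chemokine receptor gene Cxcr2 had 33.3, 95.4, 69.4 and 31.6 CPM in cSCC, highest in replicates 19 and 20. Csf3r had 17.4, 26.8, 10.2 and 31.8 CPM, highest in replicate 21, so Cxcr2 and Csf3r differed in their order over the libraries. The high neutrophil sum of replicate 18 came mostly from S100a8 and S100a9, the latter at 8418 CPM. Both genes were among the 5 markers called vs. AK. The paper also measured S100a9 RNA in carcinoma cell lines and a keratinocyte line, so S100a9 is not particular to neutrophils. Which cells expressed these genes here was not tested. Blood genes were higher too: edgeR called 5 of 5 erythroid markers in cSCC vs. NS and 4 of 5 vs. AK (medians 4.57 and 2.89), the same numbers without cSCC replicates 20 and 21, while limma voom called 1 and 0. Haemoglobin genes held 0.0917% to 5.45% of counts in NS, 1.00% to 14.3% in AK, and 46.8%, 1.44%, 5.02% and 6.02% in cSCC, so that the ranges overlapped. With haemoglobin genes left out of the fit, Trem1, Cd14 and Irg1 were still called in both comparisons. That fit removes the haemoglobin genes only, and other transcripts of blood cells stay in the counts. The part of neutrophils and of blood in the rise of Trem1, Cd14 and Irg1 was not tested. Of 6 monocyte markers edgeR called 0 in each comparison (unadjusted p under 0.05 for 2, 1 and 1), with medians of 0.66 in AK vs. NS, 0.59 in cSCC vs. NS and -0.22 in cSCC vs. AK, while DESeq2 called 0, 1 and 1 and limma voom 1, 1 and 0. For 6 mast cell markers edgeR called 0 in each comparison (unadjusted p under 0.05 for 0, 0 and 1). Their medians were 0.32 in AK vs. NS, -0.42 in cSCC vs. NS and -0.66 in cSCC vs. AK. Cd207, the langerin gene of Langerhans cells, fell in cSCC by 4.96 vs. NS and 4.21 vs. AK (edgeR, adjusted p = 0.00321 and 0.00878). All 4 endothelial markers were higher in both cSCC comparisons, with medians of 2.40 and 2.19, but 0 passed in either without cSCC replicates 20 and 21 (edgeR, unadjusted p under 0.05 for 1 and 2), and their summed level was 85.4, 85.2, 105 and 423 CPM in cSCC. In cSCC replicate 20, which carried the lung genes, the alveolar macrophage genes Marco and Siglecf had 2 counts each, under the floor of 3 counts. Ear1 had 12 counts and Ear2 had 47, and their 13.7 and 53.5 CPM were the highest of all samples. Atp6v0d2 had 117 counts, or 133 CPM, inside the NS range of 16.9 to 337 CPM. The part of alveolar macrophages in that library's 420 CPM of Mrc1 and 215 CPM of Cd68 was not tested.

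Over the 20 samples the 10 genes fell into loose groups by Spearman's rho, given as a description over libraries that share group, depth and tissue makeup. Cd68 went with Msr1 (rho 0.90) and Trem2 (0.88), and Cd14 with Irg1 (0.85) and Trem1 (0.73). Between Trem1 and Trem2 rho was 0.04. Csf1r had values between -0.16 and 0.45 with the other 9 genes. Over the whole table, the gene most like Cd68 was Ctss, a lysosomal protease (0.96, and 0.95 over the 16 NS and AK alone), and the gene most like Trem2 was Gpnmb (0.96 and 0.94). Cd14 was closest to Cxcl2, a chemokine that attracts neutrophils (0.96, and 0.93 over NS and AK), and Cxcl2 was also the second closest to Irg1 (0.85 and 0.72) after Ppp1r3b (0.86 and 0.75). Msr1 was closest to C3ar1, a complement receptor (0.95 and 0.96), and Csf1r to Alox5 (0.86 and 0.83) and then to Spi1 (0.84 and 0.81). Mrc1 was closest to the mast cell protease Cma1 (0.93 and 0.92) and Cd163 to Pdgfra, a receptor of fibroblasts (0.95 and 0.94). Trem1 was closest to Itgb1 (0.90 and 0.84). Nos2, with counts in 5 samples, had its highest rho, 0.76, with Acvrl1 and Bfar.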

How the data were processed

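RNA of 20 mouse skin tissues was sequenced, and each sample's group was read from its label. The authors deposited a table of whole-number read counts for each gene symbol, with no scaling applied. The paper's methods state trimming with Trimmomatic, alignment to GRCm38 with HISAT2 and quantification with StringTie, while the submitters' processing notes name Trimmomatic 0.36, HISAT2 2.0.5, featureCounts 1.5.2 and the build mm9 beside a human build, and this conflict could not be settled here. The strand setting in counting is not given in the sources used here, and if counting ignored strand, overlapping genes share reads.

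TMM factors from edgeR 4.0.16 (R 4.3.3), set over the 20 samples, gave the CPM. Each comparison used only its own samples, filterByExpr and edgeR's quasi-likelihood test over all genes kept, with Benjamini-Hochberg adjustment. The SE is the size of the log2 fold change divided by the square root of F, and intervals are normal 95% intervals from it. Levels per kilobase used merged exon lengths of GENCODE M21 on GRCm38. Ratios were compared with exact permutation tests in scipy 1.17.1 (Python 3.11.15, numpy 2.4.6, pandas 2.3.3). No 2 samples of a group were 1 library, since over 62 pairs the lowest chi-square per degree of freedom was 11.3. The floor of 3 counts covers counting error only. On simulated data with a log2 fold change of 2, the AK vs. NS test found 94.3% of 193 changed genes with 11 false calls, the cSCC vs. NS test 57.5% of 193 with 10, and the cSCC vs. AK test 50.3% of 197 with 5.

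The 10 genes and the gene lists were chosen with earlier results of these data known. Named list genes were at most 4 called genes per list and comparison with the largest change, plus Csf1, Il34, Tyrobp, Emr1, Itgam, S100a8, Arg1 and Il1b, and for each of the 10 genes its 2 nearest genes by rho. 1 gene of the core macrophage list is not reported here and was left out of its counts and median. C1qb, C1qc, Cd86, Irf5, Marco, Siglecf, Ear1 and Ear2 were named beyond that rule, with their values in view. Results were recomputed with DESeq2 1.42.0, limma 3.58.1 voom with quality weights, other scalings, filters and thresholds, all 20 samples in 1 fit, each sample left out, and cSCC replicates 20 and 21 left out. A fit with no haemoglobin genes was chosen after seeing the data. The paper's rule, tried as an alternative, tests each gene without adjustment.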

Additional observations from a re-analysis of the deposited data

Results flagged for a closer look

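In 48 groups of gene levels and ratios, 5 had 1 sample far from the others by the gap to its neighbour, and chance gives about 1 in 20 such groups. In NS, Cd68 was at 458.8 CPM in replicate 8, Csf1r at 55.33 CPM in replicate 2, and Cd163 at 47.24 CPM in replicate 9, each above the other 7 samples. In AK, Trem1 was at 17.98 CPM in replicate 16, above the other 7. In cSCC, the log2 ratio of Msr1 to Cd68 was -3.051 in replicate 21, the library with heart muscle genes, below the other 3. Their causes were not tested.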

How the results depend on the processing

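Trem1, Cd14 and Irg1 passed in cSCC vs. NS and cSCC vs. AK under both other tools, every scaling and every fit with 1 sample left out, and Cd14 alone of them had 10 counts in every sample and could be tested under that filter vs. NS. With 1 sample left out, the number of the 10 genes called was 0 to 2 in AK vs. NS, 3 to 3 in cSCC vs. NS and 3 to 4 in cSCC vs. AK. In AK vs. NS, limma voom called 2 and an unadjusted p and the paper's rule 1 each, where edgeR called 0. With 10 counts in every sample, 1 of the 10 was called in cSCC vs. NS and 0 in cSCC vs. AK, because fewer genes were tested. In cSCC vs. AK, DESeq2, no count filter and the paper's rule each called 5, adding Trem2 and Nos2. The 4 ratios to Cd68 that passed became 2 with 2 counts added and 0 without cSCC replicates 20 and 21, where no ratio of cSCC could pass (smallest exact p 0.0444), with 0 to 5 when 1 sample was left out.

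Genes that did not pass changed sign in some settings, and the cause was not tested. These were Cd163 in AK vs. NS (0.066 with limma voom, -0.29 to 0.62 with 1 sample left out), Trem2 in AK vs. NS (-0.086 to 0.61), Cd68 in cSCC vs. NS (0.66 with limma voom, -0.64 to 0.27), Csf1r in cSCC vs. NS (-0.30 to 0.20), Mrc1 in cSCC vs. NS (-0.45 without cSCC replicates 20 and 21, -0.28 with the paper's rule, -0.90 to 0.51), Mrc1 in cSCC vs. AK (-1.24 to 0.092) and Csf1r in cSCC vs. AK (-0.045 without both replicates). Among ratios to Cd68 these were Mrc1 in cSCC vs. NS (-0.49 to 0.091), Csf1r in cSCC vs. NS (-0.78 to 0.30) and Msr1 in cSCC vs. AK (0.49 without both replicates, -0.22 to 0.44). Over 44 single results and 926 alternative values, 843 kept direction and side of the threshold, 40 were weaker, 13 stronger and 30 reversed. Scaling by library size alone moved the median log2 fold change of all genes from 0.14 to -0.17 in cSCC vs. NS and from 0.17 to -0.09 in cSCC vs. AK, and turned 1414 higher and 926 lower calls into 625 and 1332, and 1931 and 1004 into 1021 and 1356, and in AK vs. NS it turned 264 and 278 into 176 and 481. No paired analysis was possible because the groups share no replicate numbers and no label names the mouse. Depth limits Nos2 and Trem1 in NS and AK, where most samples hold few counts.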
